A study of Caenorhabditis elegans with 2 samples.

Results

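Heterotrimeric G proteins relay signals from cell surface receptors, and the 8 genes described here encode 4 alpha, 2 beta and 2 gamma subunits of Caenorhabditis elegans. They are egl-30, goa-1, gsa-1, gpa-12, gpb-1, gpb-2, gpc-1 and gpc-2, out of 19973 nuclear protein-coding genes in the annotation. AMA-1 is the worm's largest RNA polymerase II subunit, and the set was chosen by the signal rank of the AMA-1 peak before egl-30, 1 of the stronger peaks at a 5′ end in the final peak list. The high rank of egl-30 is therefore a description and was not tested. For each gene, every summit lying within 1000 bp of the annotated gene was taken from 4 peak lists.

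The peaks came from ChIP-seq, in which DNA crosslinked to a protein is precipitated with an antibody and sequenced, here from whole young adult worms of strain YL489 of unknown age, males and females pooled. The strain has the unc-119 mutation ed3 and the transgene vrIs104, in which the pie-1 promoter, active in the germline, drives AMA-1 tagged with GFP and FLAG ahead of the puf-5 3′ untranslated region, beside an unc-119 rescue gene. There were 2 samples, biological replicates 1 and 2 of the only group. The antibody is listed only as against AMA-1, so signal from the tagged germline copy and signal from the native protein of all tissues cannot be told apart. Chromatin was sheared by sonication, and there is no second condition. Since the worms were taken whole, occupancy in few cells and weak occupancy in many cannot be told apart, and no value below belongs to a named tissue.

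An activated receptor makes the alpha subunit exchange GDP for GTP and part from the beta-gamma pair, and both then act on effectors. In the worm, EGL-30 (Gq) promotes transmitter release and egg laying in part through phospholipase C beta, GOA-1 (Go) opposes it, and GSA-1 (Gs) acts through adenylyl cyclase. GPA-12 belongs to the G12 class. GPB-1 is the general beta subunit, GPB-2 resembles mammalian Gbeta5 and pairs with RGS proteins, and GPC-1 and GPC-2 are the gamma subunits. GOA-1, GPB-1 and GPC-2 also serve in spindle positioning in the early embryo, where they are supplied maternally.

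The optimal list, which by its name holds the peaks that passed a reproducibility threshold, had 887 entries. The candidate lists behind it held 30000 regions for the pooled replicates, 28020 for replicate 1 and 30000 for replicate 2, and per their names include background. Ranks below are by the authors' signal value within a list, with 1 the strongest. The scale of that value is not given, the lists hold no read counts, and depth is unknown. In effect the optimal list was the top of the pooled list, so the ranks in these 2 lists are the same.

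Of the 8 genes, 1 had an optimal summit within 1000 bp, against 5.35% of all nuclear protein-coding genes, and that gene was egl-30. Taking instead the 887 strongest regions of replicate 1 gave 2 genes, egl-30 and gpb-1 (background 5.19%), and those of replicate 2 gave egl-30 alone (5.15%), which was also the 1 gene in both (2.28%). In the candidate lists a nearby region was common for any gene. A summit lay within 1000 bp of 6 of the 8 genes in the pooled list (background 49.6%), of 7 in replicate 1 (56%), of all 8 in replicate 2 (57%), and of 7 in both replicates (44.2%). The 8 genes had a median length of 5076 bp against 2027 bp for all protein-coding genes, and longer genes give more room for a summit. At the 5′ end, where every gene has the same window of 500 bp to either side, 3 of the 8 had a summit in both replicates (egl-30, gsa-1 and gpb-1), against 15.9% of all protein-coding genes. In single lists the 5′ window held a summit for 5 of the 8 in the pooled list (background 29%), 6 in replicate 1 (27.6%), 4 in replicate 2 (31.2%) and 1 in the optimal list (1.51%). As the set was chosen by the 5′ peak of egl-30, that gene enters every count in this paragraph by choice. Many worm transcripts are trans-spliced, so an annotated 5′ end can lie downstream of the start of transcription.

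The strongest regions outside the exons of these genes are shown for the members on chromosomes II and X, apart from a region in bcat-1. That region, near gpc-1, ranked 922 in replicate 2 and is not shown. The sequences allow the sites to be found again. The sequences are WBcel235 (ce11) reference bases from RefSeq, 29 bases on the gene's own strand, with the summit base in capitals. The first gpb-1 site overlapped regions that ranked 10636 in replicate 1 and 6599 in replicate 2. The second overlapped regions that ranked 492 in replicate 1 and 2726 in replicate 2, and its summit lies within the noncoding RNA gene F13D12.11, 15 bp from that gene's 5′ end. The gpa-12 and gpc-1 sites come from single replicates, as the pooled list holds no region there.
gpb-1, chrII:11746466-11746494, intron, pooled rank 1838: gatttacggggcacTattgcatcatctca
gpb-1, chrII:11746924-11746952, intron, pooled rank 2030: tctcttctgcgcaaGctccactcgtgtcg
gpa-12, chrX:9248596-9248624, intron, replicate 2 rank 10999: ttcactggaactgtGagggtacagttgga
gpc-1, chrX:12885398-12885426, upstream, replicate 1 rank 11498: aaatgaaaataatcAcatattttcccaat
gpc-1, chrX:12882478-12882506, intron, replicate 2 rank 11831: ctcatttcaccagtTttcgctattgagaa

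The Gq alpha gene egl-30 (WBGene00001196) lies on the plus strand of chromosome I from 1835661 to 1841965 in ce11. Its 5′ peak spanned 1835436 to 1835715, with the summit at 1835576, 85 bp upstream of the annotated 5′ end. It ranked 108 in the optimal and pooled lists with a signal of 85.8, 66 in replicate 1 with a signal of 46.8, and 247 in replicate 2 with a signal of 42.3. The summits of the replicates lay 112 and 119 bp upstream, so both libraries placed it within 7 bp of each other.

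That peak fills a short space between 2 genes. The ribosomal protein gene rpl-27, of the large subunit, ends at 1835438 on the same strand, leaving a gap of 222 bp before egl-30. The peak covers the last 3 bases of rpl-27, the whole gap and the first 55 bp of egl-30, and its summit is 138 bp past the 3′ end of rpl-27. From its position, polymerase leaving rpl-27 and polymerase starting at egl-30 cannot be told apart. The small coding gene C53H9.4, within egl-30, starts 204 bp downstream of the summit. No tRNA, snoRNA or snRNA gene lay closer than 142119 bp.

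A second optimal peak lay at the other end of egl-30. It spanned 1841855 to 1842134 with the summit 30 bp past the annotated 3′ end, and ranked 632 with a signal of 43.3. The replicates differed widely there, with rank 1008 in replicate 2 and rank 20406 in replicate 1. The next gene on the strand, emr-1, which encodes the inner nuclear membrane protein emerin, starts 450 bp downstream of the summit and 479 bp past the end of egl-30. The same peak is also counted below for emr-1, among the 209 optimal peaks at 5′ ends. From its position, polymerase at the end of egl-30 and polymerase starting at emr-1 cannot be told apart. The noncoding RNA gene M01D7.11 starts 757 bp upstream of the summit. Among all 19973 genes, 102 (0.511%) had 2 or more optimal summits within 1000 bp, and 42 (0.21%) had them within 500 bp of both ends. Of the 16314 genes longer than 1000 bp, 22 (0.135%) had them at both ends. The 5′ peak of egl-30 was fixed by the choice of the set, so these shares are not a like comparison for it. An optimal summit within 500 bp of the 5′ end was present at 302 genes, and the 42 are among these.

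Seen as gaps, 54 of 3526 spaces of up to 500 bp between same-strand protein-coding neighbours (1.53%) held an optimal summit. Of 931 genes flanked by such a gap on both sides, egl-30 was the one with an optimal summit in both. This description was chosen after the data had been seen, and the gap on the 3′ side rests on replicate 2, as the ranks above show. The summit in the 5′ gap is the peak by which the set was chosen, so the count over 931 genes is not a like comparison.

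**Figure D1:**
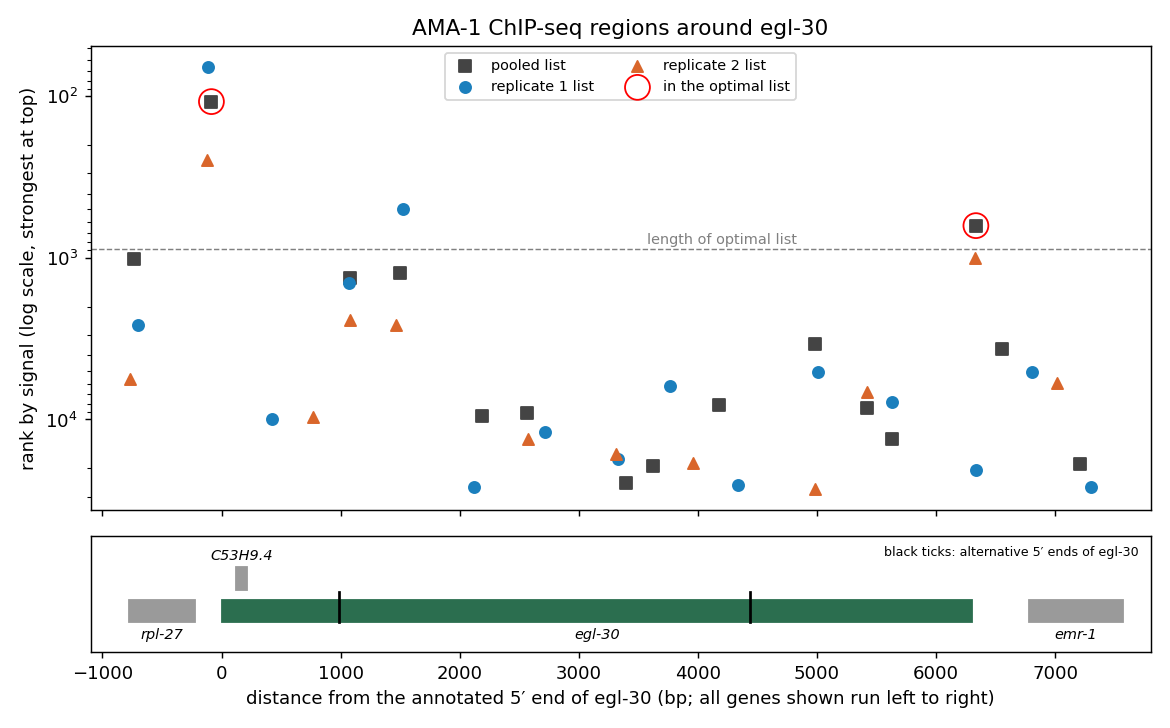
Summits within 1000 bp of egl-30 by distance from its annotated 5′ end (horizontal axis, bp) and rank by signal (vertical axis, log scale, strongest at the top) in the pooled, replicate 1 and replicate 2 lists, with the annotated genes beneath. Red circles mark the 2 optimal peaks, at ranks 108 and 632, and the dashed line is the length of the optimal list, 887.

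Candidate regions lay along egl-30 and the 1000 bp to each side, with 15 in the pooled list, 15 in replicate 1 and 12 in replicate 2. These counts, like the densities and overlap shares here and below, include regions outside the gene, here some in rpl-27 and emr-1. The pooled density was 1.81 summits per kb, a value reached by 0.566% of protein-coding genes, whose mean was 0.334. Of the 15 pooled regions in this window, 13 (86.7%) overlapped a region in both replicates, against 31.2% of all nuclear pooled regions. Regions overlap more often where the lists are dense, and neither this share nor those given below were adjusted for density. Just below the optimal threshold came a region in rpl-27 at pooled rank 1018 and 2 regions in the 5′ untranslated part of egl-30, at ranks 1246 and 1325. The region at rank 1246 lay 1497 bp into the gene and ranked 497 in replicate 1 and 2608 in replicate 2. The region at rank 1325 lay 1078 bp into the gene and ranked 1434 in replicate 1 and 2412 in replicate 2, at 88 bp past a second annotated 5′ end of egl-30.

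The 3 genes below had 5′ peaks most like that of egl-30 in rank across the pooled, replicate 1 and replicate 2 lists, out of 209 optimal peaks at protein-coding 5′ ends away from small RNA genes. They were cox-5A, for a subunit of cytochrome c oxidase, with ranks 103, 65 and 249, tasp-1, named after taspase, with 121, 99 and 156, and T13C5.6 with 123, 114 and 167. Euclidean distances in log10 rank were 0.0219, 0.271 and 0.297. The 209 peaks had median ranks of 985 in replicate 1 and 832 in replicate 2, and 48 were among the 887 strongest of both. Of the 209, 196 overlapped a region in both replicate lists, so not every optimal peak was seen in each replicate. The pooled list contains the reads of both replicates, so the 3 ranks are not independent.

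The Go alpha gene goa-1 (chromosome I, 7522116 to 7526716, plus strand) differed between the replicates at its 5′ end. Replicate 1 had a region 100 bp upstream of the 5′ end at rank 982, whereas replicate 2 had no region within 500 bp of that end. In the pooled list the 5′ region ranked 9206. Replicate 2 was strongest near the 3′ end instead, in the 3′ untranslated part 3916 bp into the gene, at rank 2749, where replicate 1 had a region at rank 9630 and the pooled list one at rank 2453. Its 11 pooled regions gave 1.67 summits per kb, reached by 1.12% of protein-coding genes, and 3 of the 11 (27.3%) overlapped regions in both replicates, close to the 31.2% of all nuclear pooled regions.

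The Gs alpha gene gsa-1 (chromosome I, 1068484 to 1074343, plus strand) had a weaker but well placed 5′ region. Its summit was 85 bp upstream of the 5′ end in replicate 1, 78 bp in replicate 2 and 73 bp in the pooled list. The ranks were 3963, 4282 and 1536, so the replicates were close to each other and both lay far below egl-30. Each replicate ranked a site in the gene body higher. Replicate 1 had rank 1623 at 1615 bp into the gene and replicate 2 had rank 1797 at 1914 bp, regions that did not overlap each other.

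The G12 alpha gene gpa-12 (chromosome X, 9243557 to 9249107, plus strand) was the emptiest of the 8 in replicate 1. Over its 5551 bp and the flanks it had no region in the pooled list or in replicate 1. Replicate 2 had 3, at ranks 10999, 19856 and 25368, all in the downstream part of the gene. At gpc-1 the pooled list also had none, and replicate 2 had fewer, with 2.

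The general beta gene gpb-1 (chromosome II, 11742811 to 11748611, minus strand) had the highest density of regions among the 8 in the pooled and replicate 2 lists, though not in replicate 1, where it had 1.79 summits per kb and egl-30 1.81. Its pooled density was 2.05 summits per kb, a value reached by 0.145% of protein-coding genes. There were 16 regions in the pooled list, 14 in replicate 1 and 15 in replicate 2, and none was in the optimal list. Of the 14 in replicate 1, 13 (92.9%) overlapped one in replicate 2, against 35.5% of all nuclear replicate 1 regions. Replicate 2 had 1.92 summits per kb here, against a mean of 0.341 over all protein-coding genes, so these shares are not a like comparison. At the 5′ end the summit lay 32 bp into the gene in replicate 1 and 59 bp in replicate 2, at ranks 6812 and 7975. Both summits also lie within F44E5.17, a small protein-coding gene annotated inside gpb-1. Replicate 1 was strongest toward the 3′ end, at rank 453 in the 3′ untranslated part, 129 bp before the end of the gene and 64 bp from the 3′ end of ctsa-1.2, which overlaps gpb-1 by 66 bp on the other strand. Replicate 2 was strongest 989 bp upstream, at rank 925, 10 bp from the noncoding RNA gene F44E5.14.

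The Gbeta5-like gene gpb-2 (chromosome I, 7318290 to 7321085, minus strand) had 1 pooled region, at rank 2309, 251 bp past its 3′ end. That summit lies within F52A8.1, which overlaps the 3′ end of gpb-2 by 48 bp on the other strand. The site ranked 22630 in replicate 1 and 1817 in replicate 2. Upstream, replicate 1 had a region at rank 2178, 485 bp before the 5′ end, and replicate 2 had no region within 500 bp of that end.

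The gamma genes differed in density in the pooled and replicate 2 lists, but little in replicate 1. The pooled list held 3 regions at gpc-2, or 1.24 summits per kb of window, most of which lies outside the gene. Replicate 1 gave 0.414 summits per kb at gpc-2, from 1 summit, and 0.340 at gpc-1, from 2. Replicate 2 gave 1.66 at gpc-2, from 4 summits, and 0.340 at gpc-1, from 2. At gpc-2 (chromosome I, 6757763 to 6758178, plus strand), a gene of 416 bp, the highest rank was 953 in replicate 1, 677 bp upstream and 89 bp from the noncoding RNA gene F08B6.6, where replicate 2 had rank 22282. Replicate 2 had a summit 57 bp upstream of the 5′ end at rank 7986, which replicate 1 lacked. At gpc-1 (chromosome X, 12881109 to 12884989, minus strand), the pooled list had none. Replicate 1 had rank 11498 at 423 bp upstream. The highest rank near gpc-1, 922 in replicate 2, lay 793 bp past its 3′ end and 12 bp from the 3′ end of the neighbour bcat-1.

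**Figure D2:**
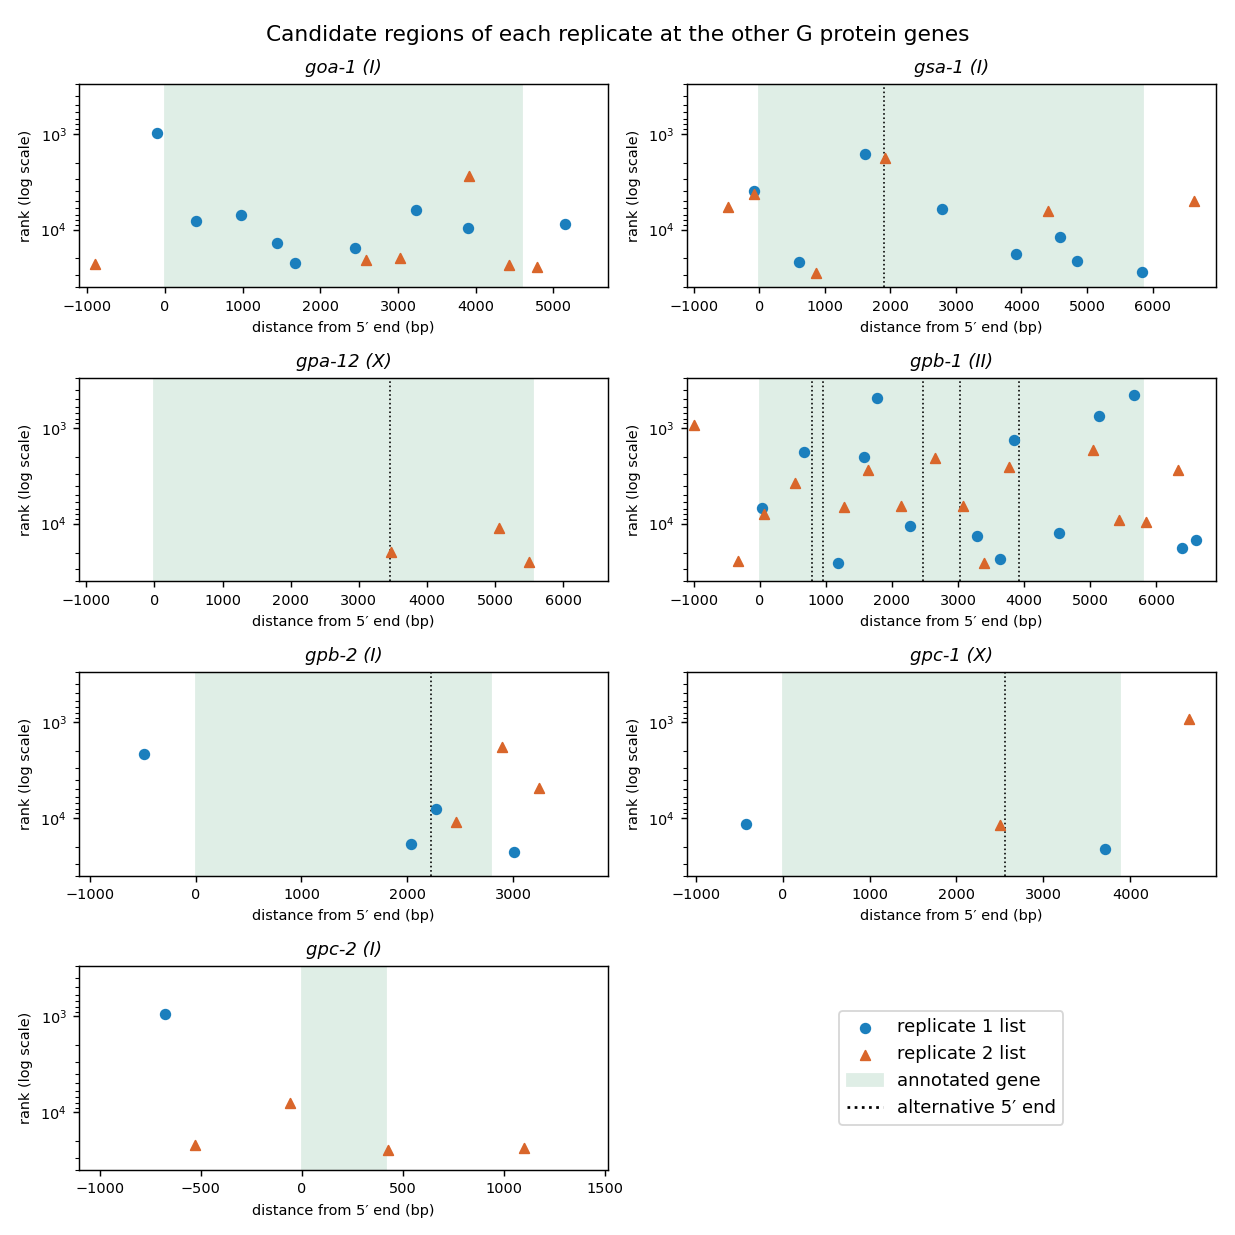
Summits of the replicate 1 and replicate 2 lists at the 7 other G protein genes, by distance from the annotated 5′ end (horizontal axis, bp) and rank by signal (vertical axis, log scale, strongest at the top). Shading marks the gene and dotted lines its alternative 5′ ends. At gsa-1 and gpb-1 both replicates have a summit close to the 5′ end, and gpa-12 has regions in replicate 2 alone.

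Ordered by their strongest region within 1000 bp, as the position from the top of each list, egl-30 stood apart and most of the others overlapped. The strongest region of egl-30 was in the top 0.236% in replicate 1 and 0.823% in replicate 2, and no other member reached that range. The values of gpb-1 were 1.62% and 3.08%, those of goa-1 3.50% and 9.16%, those of gsa-1 5.79% and 5.99%, and those of gpb-2 7.77% and 6.06%. For gpc-2 they were 3.40% and 26.6%, and for gpc-1 41.0% and 3.07%. In each of these genes other than egl-30, the strongest region lay at a different site in each replicate. Their paired values therefore do not show that a site was reproduced, and some of the regions lie in or beside neighbouring genes. The ranges between replicates of goa-1, gpc-2 and gpc-1 each took in those of gsa-1 and gpb-2. The ranges of gsa-1 and gpb-2 adjoined without overlap, and with 2 replicates no order among these 5 genes can be relied on. For gpa-12 there was no region in replicate 1 and 36.7% in replicate 2.

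Counting only summits within 500 bp of the 5′ end, the order for members found in both replicates was egl-30, then gsa-1 with 14.1% and 14.3%, then gpb-1 with 24.3% and 26.6%. These 3 ranges did not overlap. Over the 6 members with a pooled region the median best pooled rank was 2074, against 6145 over the 9902 protein-coding genes with one. The 6 include egl-30, by whose peak the set was chosen, and the lengths given above differ in the same direction.

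**Figure D3:**
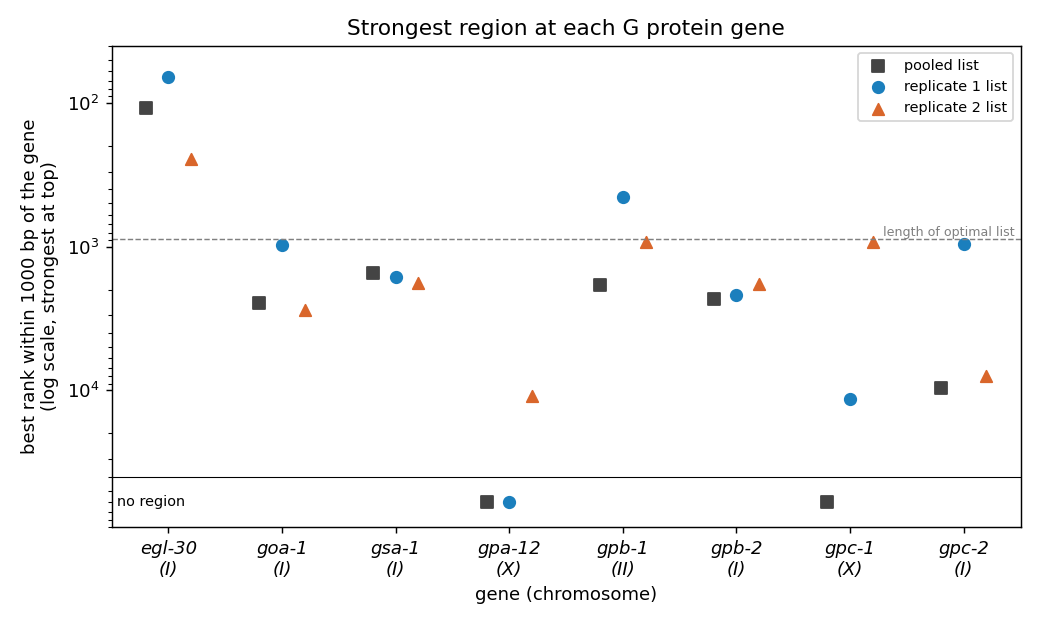
Rank of the strongest region within 1000 bp of each gene (vertical axis, log scale, strongest at the top) in the pooled, replicate 1 and replicate 2 lists, with the chromosome under each gene. Only egl-30 lies above the dashed line, the 887 entries of the optimal list, in the 3 lists shown, and gpb-1 lies above it in replicate 1 at rank 453.

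Both members without a pooled region, gpa-12 and gpc-1, are on the X chromosome. Of X-linked protein-coding genes, 38.6% had a pooled summit within 1000 bp, against 51.3% of autosomal ones. In replicate 1, where gpc-1 had a summit and gpa-12 had none, the shares were 53.4% for the X and 56.5% for autosomes. In replicate 2, where both genes had one, they were 46.5% for the X and 58.6% for autosomes. In the optimal list they were 5.24% for the X and 5.37% for autosomes.

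Annotated transcripts gave 6 of the members 11 alternative 5′ ends more than 500 bp inside the gene. A summit lay within 250 bp of 4 of the 11 in both replicates, against 7.18% of 5252 such ends in all protein-coding genes, of 7 in replicate 1 (background 19.6%), of 8 in replicate 2 (22.3%), of 6 in the pooled list (22.4%) and of 0 in the optimal list (0.59%). Of these ends, 7 belong to egl-30 and gpb-1, which held many regions along their whole length. The other 4 were in genes with fewer regions. At gsa-1 the replicate 2 summit of rank 1797 lay 15 bp from the alternative end, against 284 bp in replicate 1. At gpa-12 the replicate 2 summit of rank 19856 lay 16 bp from it, against 8130 bp in replicate 1. At gpb-2 the replicate 1 summit of rank 8000 lay 43 bp from it, against 229 bp in replicate 2. At gpc-1 the replicate 2 summit of rank 11831 lay 63 bp from it, against 1148 bp in replicate 1. Of the 4 ends with a summit in both replicates, all but that of gpb-2 belong to egl-30 and gpb-1. This comparison was added after the data had been seen.

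The 5′ ends of egl-30 and gsa-1 were rich in G and C. In the window from 250 bp before to 50 bp after the annotated 5′ end, gsa-1 had 58.7% G and C, a value reached by 7 of 19973 protein-coding genes, and egl-30 had 54%, reached by 51. The median of all genes was 34.3%, with quartiles of 31.3% and 38%. The other 6 members lay between 28.3% in gpb-2 and 41.7% in gpb-1. With 150 bp to each side of the egl-30 5′ summit, the share was 54.5%, a value reached by 2 of the 209 peaks at 5′ ends, whose median was 36.5%. Both genes had a 5′ summit in both replicates, as did gpb-1 at 41.7%, and gsa-1, with the higher share of G and C, had the weaker 5′ region of the first 2. The part of base composition in the signal was not tested.

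The motifs searched, on both strands, were GAGAGA, the TATA box core TATAAA, the splice acceptor end TTTCAG and ACGTCA, which is part of the cAMP response element. None contains another. GAGAGA occurred 5 times in the gsa-1 window and 2 times in that of egl-30, and in none of the other 6 members. At least 1 match was present in 21.8% of all promoter windows, at least 2 in 6.53% and at least 5 in 0.816%. TATAAA was found in gpa-12, gpc-1 and gpc-2 (37.9% of all windows), TTTCAG in goa-1, gpa-12, gpb-2 and gpc-2 (51.7%), and ACGTCA in none of the 8 (10.3%). Within 150 bp of the egl-30 5′ summit there were 2 matches to GAGAGA and 1 to TATAAA. At least 1 match was present in 26.3% of the 209 peaks for GAGAGA and in 34.4% for TATAAA.

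**Figure D4:**
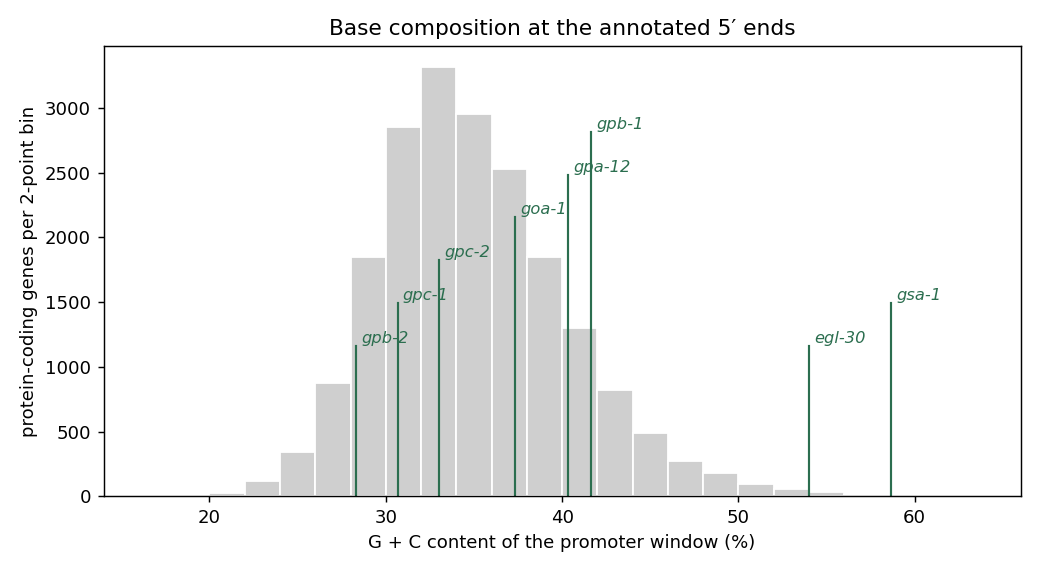
Share of G and C in the window from 250 bp before to 50 bp after the annotated 5′ end (horizontal axis, percent) for all 19973 nuclear protein-coding genes (grey bars, genes per bin) and for the 8 G protein genes (green lines, whose heights only separate the names). Both egl-30, at 54%, and gsa-1, at 58.7%, lie in the upper tail.

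Genes that act with these proteins were described from 5 lists of 84 annotated genes. An optimal summit lay within 1000 bp of 8 of the 84 (9.52%, against 5.35% of all protein-coding genes), and within 500 bp of the 5′ end of 1 (against 1.51%). Their median length was 7174 bp, and it differed widely between the lists, as given below. By list, these were 0 of 18 other G alpha genes, 1 of 21 regulators, 3 of 10 Gq and Go effectors, 2 of 13 genes of the Gs and cAMP pathway and 2 of 22 receptors for small transmitters. With the 887 strongest regions of replicate 2 alone, 3 of the 84 had a summit (background 5.15%), and with those of replicate 1 alone, 11 (5.19%).

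The phosphodiesterase gene pde-2 had the strongest of these peaks, at rank 88 in the optimal list, 57 in replicate 1 and 112 in replicate 2. Like the second egl-30 peak it lay at a 3′ end, 32 bp inside pde-2 and 40 bp from the 3′ end of its neighbour R08D7.5. The peak of pde-6, another phosphodiesterase gene, was the one at a 5′ end, 234 bp upstream, but 29 bp from the 5′ end of Y95B8A.6, at rank 853.

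Of the Gq pathway, egl-8, which encodes phospholipase C beta, had a peak of rank 692 inside the gene, with ranks 8115 in replicate 1 and 325 in replicate 2. The RGS gene eat-16, whose product acts on EGL-30, had one of rank 674 at 666 bp upstream, with ranks 383 in replicate 1 and 1222 in replicate 2. Another 3 peaks lay within 32 bp of tRNA genes, at pkc-2, a protein kinase C gene, dop-1, a dopamine receptor gene, and ser-2, a tyramine receptor gene. Without peaks at small RNA genes, 5 of the 84 remained (5.95%, against 3.81%).

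In the candidate lists of both replicates, the G alpha genes outside the members were at 6 of 18 (33.3%, against 44.2% of all protein-coding genes). The other 4 lists stood at 76.2% for the regulators, 80% for the effectors, 76.9% for the Gs and cAMP pathway and 68.2% for the receptors. Median lengths were 3204 bp for the other G alpha genes, 3751 bp for the regulators and 20034 bp for the effectors. They were 8825 bp for the Gs and cAMP pathway and 7835 bp for the receptors, against 2027 bp for all protein-coding genes. The shares were not adjusted for length. At the 5′ end alone, 13 of the 84 (15.5%) had a summit in both replicates, close to the 15.9% of all protein-coding genes.

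**Figure D5:**
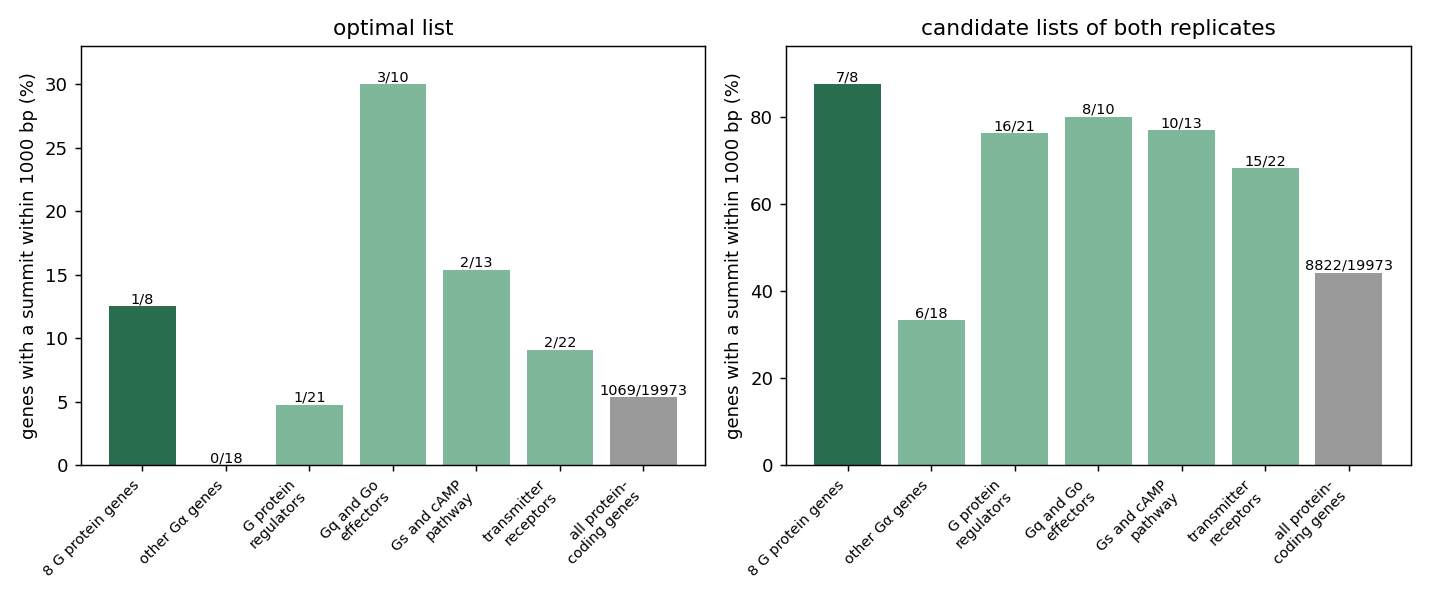
Share of genes with a summit within 1000 bp (vertical axis, percent) in the optimal list (left) and in the candidate lists of both replicates (right) for the 8 G protein genes, 5 lists of signaling genes and all nuclear protein-coding genes, with the counts above the bars. In the optimal list the 8 genes stand at 1 and the other G alpha genes at 0.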

How the data were processed

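Peak lists on build ce11 were used, which is the assembly WBcel235, and 0 regions ended beyond a reference chromosome. Per the file names, the authors prepared candidate peaks and background for each replicate and for the pooled replicates, and derived the optimal list from them by the irreproducible discovery rate. Caller, aligner and settings: not given in the sources used here. The deposited signal value of column 7 ranked regions within a list. The deposited −log10 q-value of column 9 was 3.90 for every optimal peak and ranked nothing. The control experiment and the lists on build ce10 were not analysed here.

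Genes came from Ensembl release 115 and sequence from RefSeq, including promoter windows at Ensembl 5′ ends. A summit was column 2 plus column 10, plus 1. A gene was counted when a summit lay within 1000 bp of it, or within 500 bp of its 5′ end, and regions overlapped from 1 bp. With 1 group, no test was made, and counts stand beside the share of all nuclear protein-coding genes. Alternatives were windows of 500 and 2000 bp, 5′ ends only, the stronger part of each list, cut at its median, single replicates and peaks away from small RNA genes. Members and lists were chosen with earlier results of these data known. Named genes were the members, neighbours of their optimal summits, list genes with an optimal summit, and the 3 genes nearest egl-30 in rank; other neighbours were named after their values were seen. The values of 1 list gene are not reported here. In the lists, rgs-8 and nca-1 had no match. The counting step was tested on simulated data. Python 3.11.15, numpy 2.4.6, pandas 2.3.3 and matplotlib 3.10.9 were used.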

Additional observations from a re-analysis of the deposited data

How the results depend on the processing

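Of the 8 members, 1 (egl-30) had an optimal summit under each alternative except a single library, where the count was 1 to 2. The second gene, with replicate 1 alone, was gpb-1. The rank of the egl-30 5′ peak, 108, was 81 on nuclear chromosomes and 66 to 247 in single replicates. Members with a candidate summit in both replicates numbered 6 or 7 under the other alternatives but 3 when only 5′ ends counted. The 8 genes of the signaling lists became 1 with 5′ ends only, 2 with optimal peaks stronger than their median, 5 without peaks at small RNA genes and 3 to 11 with single replicates. The cause was not tested. No paired analysis was possible because the study has 1 group. No depth was available, so absence from a list does not show absence of polymerase. The 3′ peak of egl-30 ranked 1008 in replicate 2 and 20406 in replicate 1.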

Other observations

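High G and C content at a promoter went with 5′ regions beyond egl-30 and gsa-1. Of the 51 protein-coding genes whose promoter window held at least as much G and C as that of egl-30, 21 (41.2%) had a summit within 500 bp of the 5′ end in both replicates, against 15.9% of all protein-coding genes, and 7 (13.7%) had an optimal one, against 1.51%. The 51 genes include egl-30 and gsa-1, the comparison was chosen after the data had been seen, and no test was made. Whether the share of G and C affected recovery of fragments in these libraries was not tested.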
